A study of Mus musculus with 16 samples.

Results

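Metallothionein and zinc-handling genes were followed across mouse haematopoietic stem cells (HSC), induced pluripotent stem cells (iPSC) and embryonic stem cells (ESC). The 6 genes were Mt1, Mt2, Mt3, Mtf1, Slc30a1 and Slc39a10, and every probe set that carried only one of these symbols was taken. This gave 13 of the 34945 probe sets with a single symbol, and 6 of 18193 genes. Mtf1 had 5 probe sets, Mt1, Slc30a1 and Slc39a10 had 2 each, and Mt2 and Mt3 had 1 each. The genes were chosen by name, with the higher level of Mt2 in aged HSC already known from these arrays. Differences between aged and young HSC are therefore described for these genes without a test.

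RNA was measured on 16 single-channel Affymetrix arrays in 7 groups, all labelled wild type on a C57Bl6 background. The cultured cells were aged-origin iPSC (2 arrays), young-origin iPSC (2 arrays) and commercial ESC (2 arrays, 1 from each of 2 suppliers). Both kinds were grown on mouse embryonic fibroblast feeders. Transplanted HSC came from the marrow of recipients of aged marrow (2 arrays) or young marrow (2 arrays), and the labels give neither the sex nor the age of these animals. Steady-state HSC came from male mice of 21 to 24 months (aged, 3 arrays) and of 3 to 4 months (young, 3 arrays). Apart from ESC, the labels name the arrays within a group as biological replicates, without saying how many animals or clones stood behind each. The p-values below rest on the spread between these arrays, which limma pools over the groups of a fit and moderates over all genes.

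Metallothioneins are small cysteine-rich proteins that bind zinc and copper and buffer the free metal in the cell. Mt1 and Mt2 are expressed in most tissues and are induced by metals, glucocorticoids, cytokines and oxidants, whereas Mt3 is best known from brain. Mtf1 encodes the zinc-sensing transcription factor that binds metal response elements in the promoters of Mt1, Mt2 and Slc30a1. Slc30a1 encodes a zinc exporter of the plasma membrane, and Slc39a10 a zinc importer.

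In the RefSeq annotation of GRCm38.p6, Mt3 (chr8:94152607-94154148), Mt2 (chr8:94172618-94173567) and Mt1 (chr8:94178883-94180327) lay side by side, with 5315 bases between Mt2 and Mt1. Mtf1 lay at chr4:124802549-124849800, Slc30a1 at chr1:191906697-191913248 and Slc39a10 at chr1:46807544-46925776. Promoter windows of 300 bases, from 250 before to 50 after a RefSeq transcript start, were found for all 6 genes. For Mt1, Slc30a1 and a Slc39a10 window, that start lay inside the gene interval given above and not at its end. The windows were searched on both strands for the core of the metal response element, written TGCACNC or TGCGCNC. The windows of the genes with a match are shown because they set Mt1 and Mt2 beside Mt3, the metallothionein gene that behaved differently on the arrays, and beside the exporter gene. Capitals mark the matched cores, and all 4 windows lie on the plus strand.
Mt1, chr8:94178839-94179138: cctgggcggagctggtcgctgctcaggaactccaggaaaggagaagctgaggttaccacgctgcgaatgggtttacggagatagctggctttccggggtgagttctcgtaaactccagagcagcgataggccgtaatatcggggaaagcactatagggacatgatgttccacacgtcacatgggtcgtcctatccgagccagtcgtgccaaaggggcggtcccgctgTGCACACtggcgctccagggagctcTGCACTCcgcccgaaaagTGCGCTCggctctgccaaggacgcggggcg
Mt2, chr8:94172368-94172667: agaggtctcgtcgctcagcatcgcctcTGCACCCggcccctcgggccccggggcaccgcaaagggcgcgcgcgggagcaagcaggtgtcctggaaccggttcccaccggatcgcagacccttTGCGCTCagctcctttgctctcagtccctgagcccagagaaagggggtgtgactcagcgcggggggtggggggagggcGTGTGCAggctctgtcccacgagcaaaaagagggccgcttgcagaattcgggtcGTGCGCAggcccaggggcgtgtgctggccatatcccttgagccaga
Mt3, chr8:94152357-94152656: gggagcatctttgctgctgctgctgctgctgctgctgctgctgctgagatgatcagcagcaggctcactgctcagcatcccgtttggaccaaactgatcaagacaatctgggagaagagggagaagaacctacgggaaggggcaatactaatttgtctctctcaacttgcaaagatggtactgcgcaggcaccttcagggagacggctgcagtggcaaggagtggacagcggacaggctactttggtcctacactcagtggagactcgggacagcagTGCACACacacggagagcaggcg
Slc30a1, chr1:191906531-191906830: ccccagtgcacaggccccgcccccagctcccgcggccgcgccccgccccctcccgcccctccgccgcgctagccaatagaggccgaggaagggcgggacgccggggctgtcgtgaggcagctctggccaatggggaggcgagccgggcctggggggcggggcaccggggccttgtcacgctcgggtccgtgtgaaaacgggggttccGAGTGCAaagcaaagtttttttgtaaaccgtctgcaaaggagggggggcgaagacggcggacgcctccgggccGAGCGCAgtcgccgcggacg

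The Mt2 window held 4 cores, the Mt1 window 3, the Slc30a1 window 2 and the Mt3 window 1. No core was in the Mtf1 window or in either of the 2 Slc39a10 windows. Among all 32851 mouse promoter windows of this length, 25.704% held at least 1 core, 7.114% at least 2, 1.969% at least 3 and 0.517% at least 4. The core of the antioxidant response element, written TGACNNNGC, was in the Mt2 and Slc30a1 windows, once each, and in 12.392% of all windows. No match overlapped another. A match describes letters in the window and does not show that a factor binds there.

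**Figure D1:**
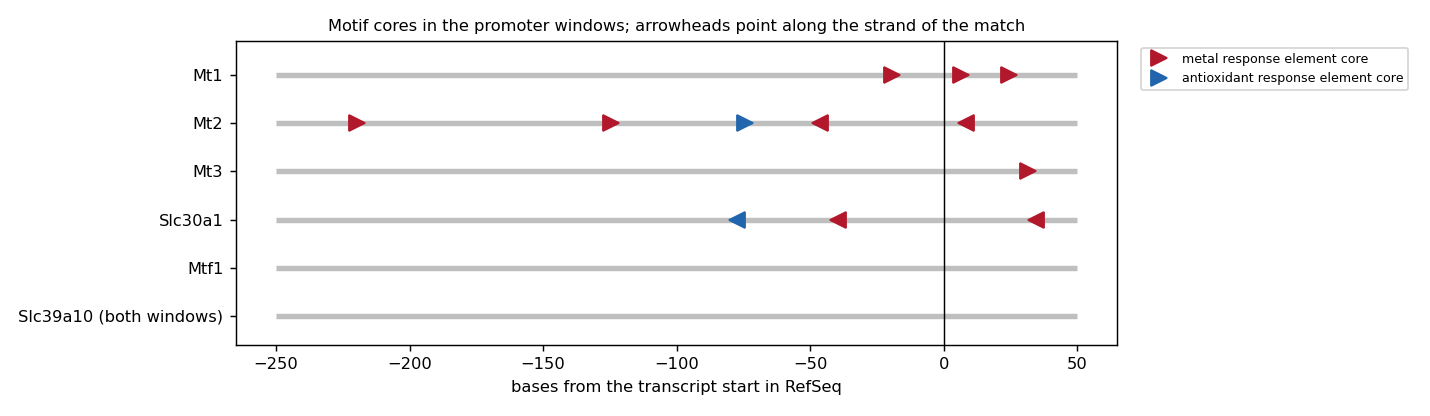
Positions of motif cores in the promoter windows of the 6 genes, in bases from the RefSeq transcript start (x axis). Red arrowheads are cores of the metal response element and blue ones cores of the antioxidant response element. Mt2 has 4 red arrowheads spread over its window, and the 3 of Mt1 lie within 50 bases of the transcript start used, which is inside the gene interval.

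The cell labels were checked against marker genes. Summed intensity of 7 pluripotency markers was 18837.8 to 20868.7 on the iPSC and ESC arrays and 106.9 to 227.7 on the HSC arrays. That of the 6 HSC markers on the array was 333.7 to 416.0 in the cultured cells, 4936.6 to 6601.8 in transplanted HSC and 17329.6 to 21465.3 in steady-state HSC. Both settings thus carried HSC markers, at a lower level after transplantation. Xist stood at 13.31 to 13.56 log2 on the transplanted arrays and 6.09 to 6.71 log2 on the steady-state arrays, and the Y-linked gene Kdm5d at 2.84 to 3.01 and 8.20 to 8.42. The steady-state levels fit the male label, whereas the transplanted levels are those known of female cells. Sex and transplantation cannot be told apart in these arrays, and the same holds for any other difference between these sets of arrays. Array medians were 5.65 to 5.70 log2 in transplanted and 5.44 to 5.49 log2 in steady-state HSC.

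Mt2 separated the groups most widely. It measured 13.24 and 13.19 log2 in aged-origin iPSC, 13.18 and 13.18 in young-origin iPSC, and 13.22 and 13.26 in ESC. In HSC it measured 7.44 and 8.60 log2 in aged transplanted and 5.31 and 6.25 in young transplanted cells. Steady-state HSC gave 8.54, 8.56 and 8.53 log2 in aged and 5.06, 5.60 and 4.99 in young mice. All pluripotent arrays lay far above all HSC arrays, and aged HSC arrays lay above young ones in both settings. In order of group means, ESC, aged-origin iPSC and young-origin iPSC were followed by aged steady-state, aged transplanted, young transplanted and young steady-state HSC. The arrays of aged steady-state and aged transplanted HSC overlapped, as did those of young transplanted and young steady-state HSC. In bulk RNA, fewer cells that express a gene and less RNA per cell cannot be told apart.

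Mt1 had 2 probe sets, and the brighter, 1422557_s_at, carries the suffix that Affymetrix gives to probes shared by several transcripts. It may therefore take up signal from other metallothionein transcripts. It measured 12.26 and 12.13 log2 in aged-origin iPSC, 12.18 and 12.11 in young-origin iPSC, and 12.27 and 12.15 in ESC. In transplanted HSC it measured 7.69 and 9.62 log2 with aged marrow and 7.28 and 6.58 with young marrow. In steady-state HSC it measured 8.88, 8.93 and 8.91 log2 in aged mice and 6.47, 5.99 and 6.11 in young mice. The order of groups was that of Mt2, and the aged transplanted pair differed most between replicates (8.66 ± 1.37, mean ± SD, n = 2).

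The other Mt1 probe set, 1451612_at, showed a narrower range. It measured 6.62 and 6.74 log2 in aged-origin iPSC, 6.36 and 6.22 in young-origin iPSC, and 6.64 and 6.93 in ESC. In transplanted HSC it measured 4.88 and 5.90 log2 with aged marrow and 4.35 and 4.38 with young marrow, without overlap. In steady-state HSC it measured 5.42, 5.83 and 5.58 log2 in aged mice and 5.70, 5.14 and 5.20 in young mice, and these groups overlapped. The size of the Mt1 differences thus depended on the probe set.

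**Figure D2:**
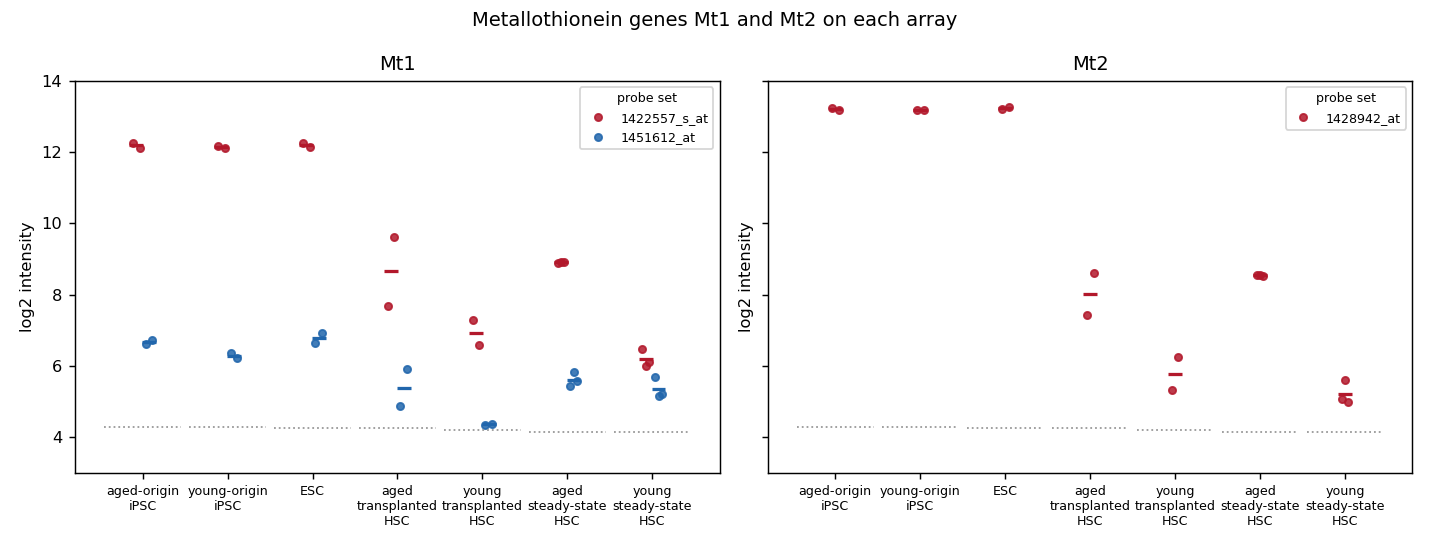
Log2 intensity (y axis) of Mt1 and Mt2 on each array, by group (x axis); points are arrays, short bars group means, colours probe sets, and dotted lines the 25th percentile of all probe sets averaged over the arrays of a group. Mt2 lies at 13.18 to 13.26 in the pluripotent groups, at 7.44 to 8.60 in aged HSC and at 4.99 to 6.25 in young HSC.

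Mt3 did not share this pattern. It measured 6.50 and 5.98 log2 in aged-origin iPSC, 6.11 and 6.21 in young-origin iPSC, and 6.01 and 5.87 in ESC. Transplanted HSC gave 6.02 and 6.16 log2 with aged marrow and 7.14 and 6.14 with young marrow. Steady-state HSC gave 5.35, 5.47 and 5.36 log2 in aged mice and 5.62, 5.42 and 5.50 in young mice. Steady-state arrays were the lowest, and the aged and young arrays overlapped in every setting.

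Aged and young steady-state HSC were compared first. Mt2 averaged 8.54 ± 0.01 log2 in aged and 5.22 ± 0.33 log2 in young cells (SD, n = 3 each), a difference of 3.32 log2 or 10.0-fold, with 2.92 log2 between the lowest aged and the highest young array. Mt1 averaged 8.91 ± 0.02 log2 in aged and 6.19 ± 0.25 log2 in young cells on the shared probe set, a difference of 2.72 log2, against 0.26 on the other. Slc30a1 averaged 9.02 ± 0.12 log2 in aged and 8.63 ± 0.03 log2 in young cells, 1.31-fold apart, on its brighter probe set, and differed by 0.10 log2 with overlapping arrays on the other, 1422786_at. By their brightest probe sets the arrays of Mt1, Mt2 and Slc30a1 did not overlap, with aged above young, as for 8.84% of the 13645 genes tested (18.2% in either direction). The differences for Mt3, Mtf1 and Slc39a10 were -0.12, 0.29 and -0.04 log2, with overlapping arrays. Among the other Mtf1 probe sets, 1418333_at (0.30 log2) and 1452990_at (0.18 log2) had every aged array above every young one, while 1429170_a_at (-0.04 log2) and 1440414_at (-0.10 log2) overlapped. The median difference of the 6 genes was 0.34 log2, against -0.02 over all genes tested. Adding 64 to each intensity before the log, which weighs down dim values, lowered the Mt2 difference to 2.10 log2.

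In transplanted HSC, Mt2 averaged 8.02 ± 0.82 log2 with aged and 5.78 ± 0.67 log2 with young marrow (SD, n = 2 each), a difference of 2.24 log2 or 4.72-fold. Mt1 averaged 8.66 ± 1.37 and 6.93 ± 0.50 log2 with aged and young marrow on the shared probe set, 1.73 log2 apart, and the other probe set differed by 1.03 log2. Slc30a1 averaged 8.54 ± 0.04 log2 with aged and 7.56 ± 0.52 log2 with young marrow, 1.97-fold apart, on its brighter probe set, against -0.03 log2 with overlap on the other. By their brightest probe sets, arrays did not overlap for these 3 genes, with aged above young, nor for Slc39a10, with aged below young (-0.36 log2). That is 4 of 6 genes, against 31.7% of all genes tested (14.2% with aged above and 17.5% with aged below). The differences for Mt3 and Mtf1 were -0.55 and -0.04 log2, with overlap.

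Markers of other blood cells are given beside these age differences. Summed intensity of 6 B and plasma cell markers was 474.4 to 862.6 with aged and 208.0 to 235.9 with young marrow in transplanted HSC, with only Ms4a1 below the 25th percentile of genes on every aged array. In steady-state HSC it was 335.1 to 636.7 in aged and 381.6 to 436.3 in young mice. That of 6 megakaryocyte markers was 5497.5 to 6213.7 in aged and 2917.3 to 3584.2 in young steady-state HSC, and 2114.0 to 2322.2 with aged and 2032.3 to 2633.5 with young marrow. The members of these lists did not move together. In transplanted HSC the antibody light chain gene Igk was at least 19.6-fold higher with aged marrow, since it lay below the 25th percentile of genes on every young array (limma adjusted p = 0.00279), whereas Cd79b and Ighm stood at -0.58 and -0.23 log2. In steady-state HSC Vwf rose by 2.10 log2 in aged cells (adjusted p = 0.00247), whereas Pf4 and Ppbp stood at -0.71 and -0.68 log2. That of 8 granulocyte and monocyte markers was 5383.2 to 6166.2 in aged and 3591.3 to 5341.3 in young steady-state HSC, and 1938.2 to 3160.8 with aged and 2580.6 to 3243.9 with young marrow. Of these 8, Prtn3 was the one called in steady state (0.85 log2, adjusted p = 0.0312), and Mpo and Ctsg stood at -0.82 and -0.49 log2. In transplanted HSC Csf1r lay below the 25th percentile of genes on every aged array. It was at least 5.15-fold lower with aged marrow (limma adjusted p = 0.0206), whereas S100a8 stood at 1.88 log2. Summed intensity of 5 erythroid markers was 226.5 to 303.6 in aged and 302.1 to 327.1 in young steady-state HSC, and 216.7 to 297.6 with aged and 179.4 to 388.0 with young marrow. Slc4a1 lay below the 25th percentile of genes on every young transplanted array. It was at least 2.32-fold higher with aged marrow (limma adjusted p = 0.041), whereas Klf1 stood at -0.86 log2. The part of these blood cell markers in the metallothionein differences was not tested.

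Whether an age difference was present after reprogramming was tested in iPSC, a contrast that was not used to choose the genes. Of the 6 genes, 0 were called by limma at an adjusted p under 0.05, where 0.00733% of all genes tested (1 gene) were called. At an unadjusted p under 0.05 there was 1, Slc30a1. For Mt2 the difference of aged-origin from young-origin iPSC was 0.03 log2, with a 95% interval from -0.23 to 0.30 (limma adjusted p = 0.987). For Mt1 on the shared probe set it was 0.05 log2, with an interval from -0.23 to 0.33. Steady-state HSC had differences of 2.72 log2 (Mt1) and 3.32 log2 (Mt2) on these probe sets. The other Mt1 probe set, 1451612_at, had 0.39 log2 in iPSC without overlap (limma adjusted p = 0.994 over all probe sets), against 0.26 log2 with overlap in steady-state HSC. The difference between iPSC and HSC was not itself tested. These values rest on 2 iPSC arrays a group, and whether intensities near the top of the scale are compressed was not tested: the brightest probe set of each array lay at 14.57 to 14.94 log2.

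Slc30a1 was the one zinc gene whose brighter probe set had a limma interval below 0 in aged-origin iPSC. It measured 8.23 and 8.48 log2 in aged-origin and 8.64 and 8.71 log2 in young-origin iPSC, without overlap, and differed by -0.32 log2 (interval -0.62 to -0.01, adjusted p = 0.976). Its other probe set, 1422786_at, pointed the other way (0.17 log2). By the brightest probe sets, arrays did not overlap for 2 of the 6 genes, Mt2 and Slc30a1, against 33.4% of all genes. For Mt3, Mtf1 and Slc39a10 the differences were 0.08, -0.10 and -0.13 log2, with intervals from -0.31 to 0.47, from -0.45 to 0.25 and from -0.43 to 0.17. The dimmer Slc39a10 probe set, 1439041_at, differed by -0.43 log2 and the Mtf1 probe set 1429170_a_at by -0.22 log2. Neither overlapped, and both had a limma adjusted p of 0.994 over all probe sets. Mtf1 probe sets 1418333_at, 1440414_at and 1452990_at differed by 0.02, -0.08 and -0.03 log2, with overlap.

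Between iPSC and ESC, again 0 of 6 genes were called by limma, and 0 at an unadjusted p under 0.05, with 0.11% of all genes called. Mt1 and Mt2 each differed by -0.04 log2, with intervals from -0.29 to 0.20 and from -0.27 to 0.19. Mt3 had the largest difference of the 6, 0.26 log2 (interval -0.08 to 0.60, adjusted p = 0.496). Among all 13 probe sets, the dimmer one of Slc39a10, 1439041_at, stood out with -0.86 log2: it measured 5.16 and 5.50 log2 in aged-origin iPSC, 5.99 and 5.54 in young-origin iPSC, and 6.45 and 6.36 in ESC. The iPSC and ESC arrays of that probe set did not overlap, yet its limma adjusted p over all probe sets was 0.132.

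Both major metallothionein genes were far higher in iPSC than in steady-state HSC. Mt2 was 79.8-fold higher (6.32 log2, SE 0.22, limma adjusted p = 4.33e-12) and Mt1 24.6-fold higher (4.62 log2, SE 0.28, adjusted p = 1.61e-09). The Mt1 probe set 1451612_at rose by a smaller 1.01 log2 (adjusted p = 0.000313 over all probe sets). Since HSC of both ages enter this mean, the distance was also taken within each age. Aged-origin iPSC stood 4.67 log2 above aged steady-state HSC for Mt2, and young-origin iPSC 7.96 log2 above young steady-state HSC. Mt3 rose by 0.74 log2 (SE 0.17, adjusted p = 0.00117).

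By their brightest probe sets, limma called 6 of 6 genes in that comparison, 3 higher and 3 lower. Of all genes tested, 76.4% were called (41.8% higher and 34.7% lower). Most genes thus differed between these cell types, and a call says little by itself. The median difference of the 6 genes was 0.21 log2, against 0.17 over all genes tested. Feeder fibroblasts were grown with the iPSC. Summed intensity of 12 fibroblast markers was 2125.2 to 2519.3 in iPSC and 2970.7 to 3036.6 in ESC, against 528.4 to 724.9 in HSC, with Col3a1 and Lum below the 25th percentile of genes on every iPSC array. The members differed: Fn1 stood 4.50 log2 above steady-state HSC in iPSC (limma adjusted p = 3.62e-08), S100a4 was 2.29-fold lower (adjusted p = 0.000109), and Col1a2 (0.29 log2) and Pdgfrb (-0.16 log2) were not called. Their part in the metallothionein levels was not tested.

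**Figure D3:**
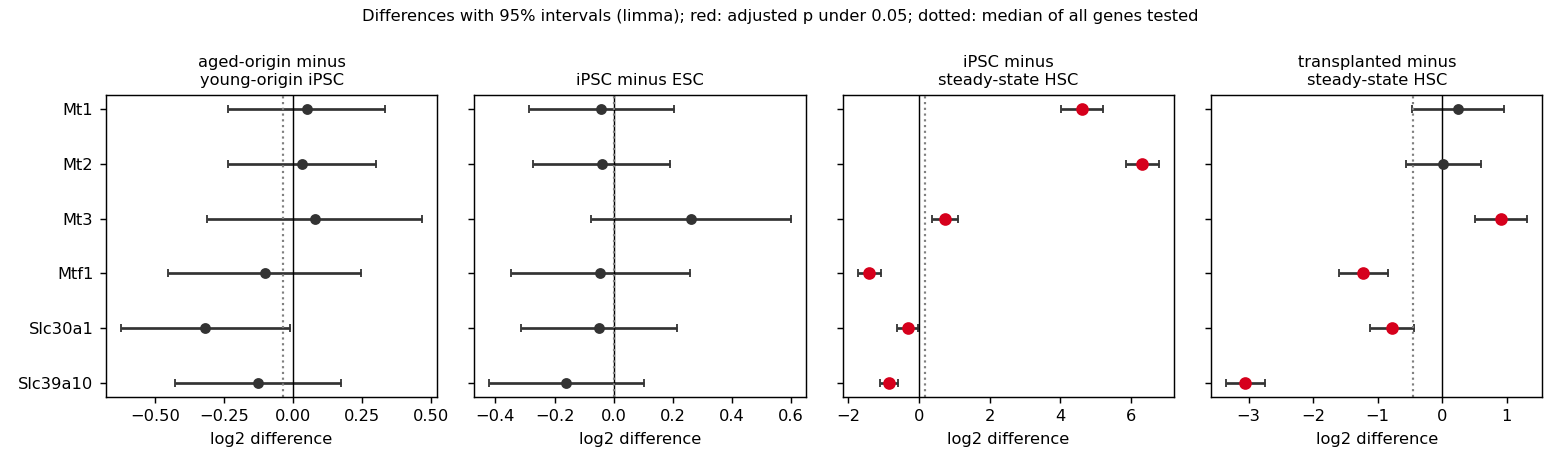
Log2 differences (x axes, with a scale of their own in each panel) of the 6 genes, each by its brightest probe set, with 95% intervals from limma in the 4 tested comparisons. Red points passed at an adjusted p under 0.05, and dotted lines mark the median of all genes tested. Mt1 and Mt2 lie near 0 in both comparisons among pluripotent cells and at 4.62 and 6.32 in iPSC minus steady-state HSC.

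Mtf1, the zinc sensor, was read by 5 probe sets that did not move together. The brightest on average, 1428979_at, measured 6.70 and 6.59 log2 in aged-origin iPSC, 6.55 and 6.94 in young-origin iPSC, and 6.82 and 6.66 in ESC. It measured 6.93 and 6.76 log2 in aged transplanted and 6.60 and 7.17 in young transplanted HSC. In steady-state HSC it measured 8.31, 8.35 and 8.05 log2 in aged and 8.28, 7.88 and 7.68 in young mice, above all other arrays. By this probe set Mtf1 fell by 1.40 log2 in iPSC relative to steady-state HSC (SE 0.15, limma adjusted p = 1.23e-06). Its probe set 1418333_at rose by 1.19 log2 in the same comparison, from which no single direction follows for the gene. The mean of the 5 probe sets gave 0.18 log2, which limma did not call.

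By its brighter probe set, the importer gene Slc39a10 was high in every setting but transplanted HSC. Its brighter probe set, 1433751_at, measured 10.05 and 9.84 log2 in aged-origin iPSC, 10.14 and 10.00 in young-origin iPSC, and 10.12 and 10.23 in ESC. Transplanted HSC gave 7.50 and 7.73 log2 with aged and 7.90 and 8.05 with young marrow, below all other arrays. In steady-state HSC it measured 10.75, 10.94 and 10.78 log2 in aged and 10.63, 11.07 and 10.89 in young mice. In iPSC relative to steady-state HSC, Slc39a10 fell by 0.83 log2 (SE 0.12, limma adjusted p = 1.62e-05), and its other probe set fell by 1.94 log2. That probe set, 1439041_at, averaged 7.07 and 7.45 log2 in aged and young transplanted HSC. It averaged 7.54 and 7.44 log2 in aged and young steady-state HSC. Its lowest means were those of aged-origin iPSC (5.33 log2), young-origin iPSC (5.76 log2) and ESC (6.41 log2).

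Slc30a1, the exporter gene, varied less between groups than Slc39a10. Its brighter probe set, 1436164_at, measured 8.50 and 8.63 log2 in ESC, 8.51 and 8.57 in aged transplanted and 7.19 and 7.93 in young transplanted HSC. Steady-state HSC gave 9.14, 9.03 and 8.90 log2 in aged and 8.61, 8.62 and 8.66 in young mice. The young transplanted pair was the lowest and the aged steady-state arrays were the highest. In iPSC relative to steady-state HSC it fell by 0.32 log2 (limma adjusted p = 0.0469), but 16 of 27 alternatives lost or turned that call. It was lost without either ESC array, aged steady-state array 1 or 2, any of the young steady-state arrays, aged-origin iPSC array 1 or either young-origin iPSC array, with values from -0.33 to -0.25 log2. The other probe set of Slc30a1, 1422786_at, rose by 0.93 log2 without overlap (limma adjusted p = 0.000115 over all probe sets). In that fit the brighter one was not called (adjusted p = 0.0579). The mean of both probe sets gave a called rise of 0.31 log2.

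**Figure D4:**
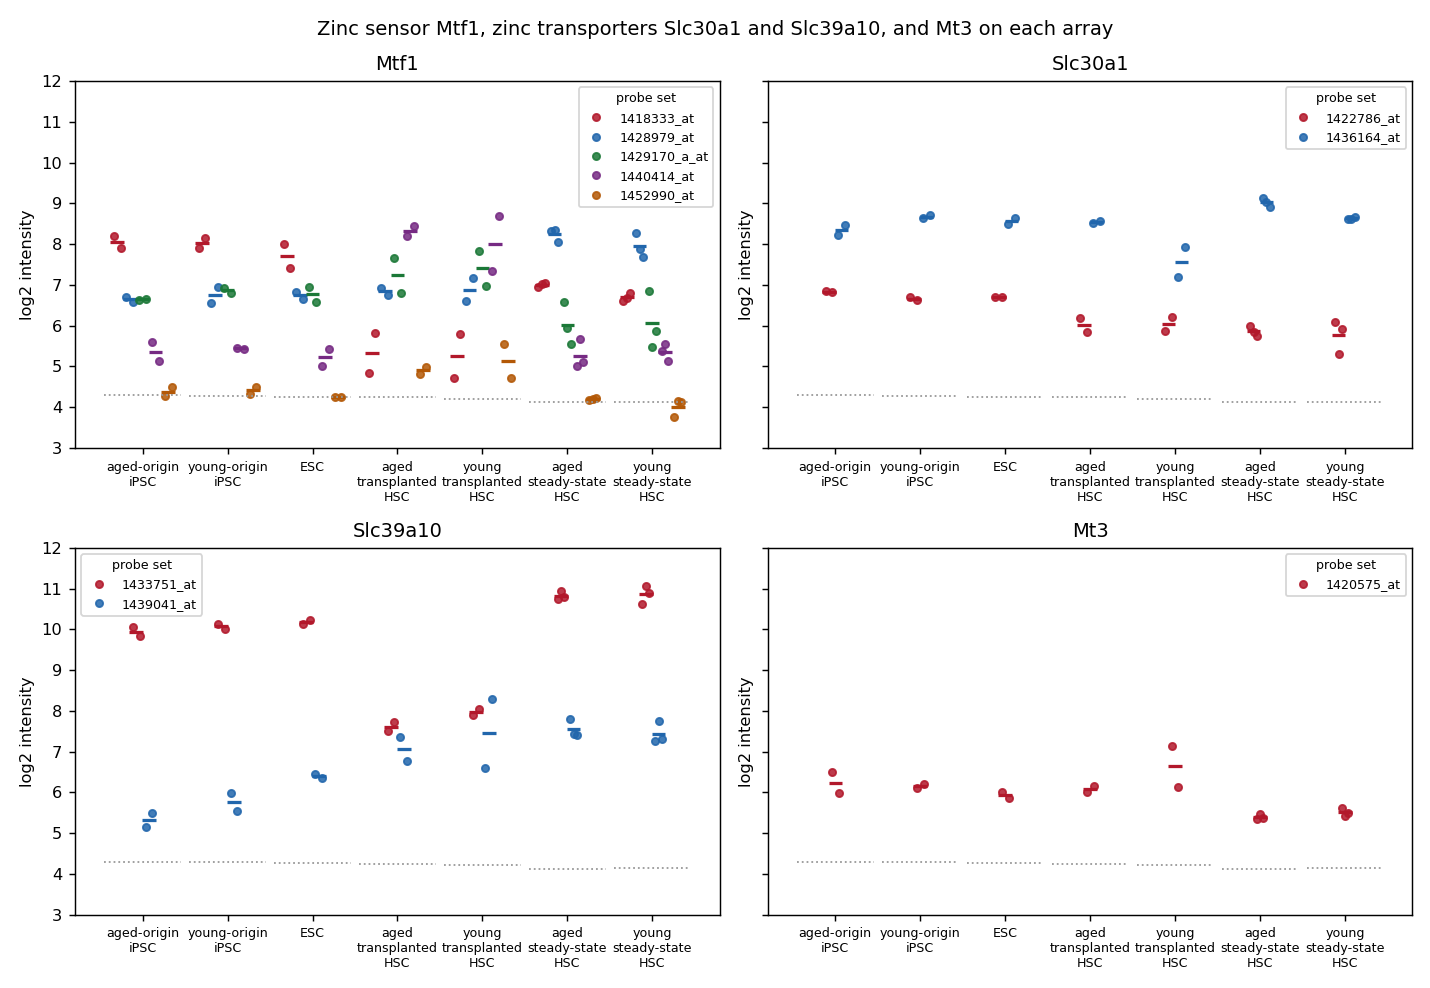
Log2 intensity (y axes) of every probe set of Mtf1, Slc30a1, Slc39a10 and Mt3 on each array, by group (x axes); points are arrays, short bars group means, colours probe sets, and dotted lines the 25th percentile of all probe sets averaged over the arrays of a group. The bright Slc39a10 probe set drops to 7.50 to 8.05 in transplanted HSC, and the 5 Mtf1 probe sets cross each other between groups.

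Transplanted and steady-state HSC were compared as means over both ages. Slc39a10 fell 8.28-fold (-3.05 log2, SE 0.13, limma adjusted p = 6.09e-08), while its other probe set differed by -0.23 log2 (adjusted p = 0.524 over all probe sets). Its fall on the brighter probe set was of like size in aged (-3.21 log2) and young cells (-2.89 log2). Slc30a1 fell by 0.78 log2 (SE 0.15, adjusted p = 0.00113), and its other probe set stood at 0.22 log2. Mt3 rose by 0.91 log2 (SE 0.18, adjusted p = 0.00123). Neither Mt1 (0.24 log2, interval -0.47 to 0.96, adjusted p = 0.517) nor Mt2 (0.02 log2, interval -0.55 to 0.59, adjusted p = 0.949) passed. These means average shifts of opposite sign in the 2 ages. Mt2 differed by -0.52 log2 in aged and 0.56 log2 in young cells. Mt1 differed by -0.25 log2 in aged and 0.74 log2 in young cells on its brighter probe set. The shifts within an age were not tested. Mt1 passed, at 0.73 log2, when aged transplanted array 1 was left out, while its dimmer probe set fell by 0.60 log2 on all arrays (adjusted p = 0.0314 over all probe sets). With 1 array left out, the brighter Mt1 probe set ran from -0.24 to 0.73 log2, so its direction was not settled. On all arrays only the dimmer one passed.

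For Mtf1, the brightest probe set fell by 1.22 log2 (SE 0.17, limma adjusted p = 9.6e-05) and 1418333_at fell by 1.56 log2. The other 3 probe sets rose, by 2.85 log2 for 1440414_at, 1.27 for 1429170_a_at and 0.91 for 1452990_at, and the mean of the 5 gave a called rise of 0.45 log2. Probe set 1440414_at measured 8.19 and 8.44 log2 in aged transplanted and 7.33 and 8.69 in young transplanted HSC. It measured 5.0, 5.68 and 5.12 log2 in aged and 5.38, 5.56 and 5.14 in young steady-state HSC.

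By their brightest probe sets 4 of 6 genes were called, 1 higher and 3 lower, where 69.9% of all genes were called (19.8% higher and 50.1% lower). The median difference of the 6 genes was -0.38 log2, against -0.46 over all genes tested, or -0.66 when each array was centred on its median. The lower calls thus came on a scale where most genes were lower after transplantation. HSC of different sex were compared, as described for Xist. The comparisons of iPSC and of transplanted HSC share the same 6 steady-state arrays.

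Other zinc transporters were taken from lists of the family. Of 9 exporters other than Slc30a1 on the array, 6 passed the filter on dim genes. All 6 fell in transplanted relative to steady-state HSC (median -1.21 log2), and 4 to 8 exporters fell under alternatives. Slc30a4, which loads zinc into vesicles, fell by 2.35 log2 (SE 0.15). Slc30a5, which loads it into the early secretory pathway, fell by 1.93 log2 (SE 0.15). Of 11 importers tested other than Slc39a10, 6 fell, 0 rose, and the median was -0.33 log2. Under alternatives 4 to 7 importers fell and 0 to 2 rose. Slc39a14, which also carries iron, fell by 1.95 log2 (SE 0.29). Slc39a9 changed by -1.87 log2 and Slc39a7, which releases zinc from the endoplasmic reticulum, by -1.22 log2. The share of falls in all genes was 50.1%.

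In iPSC relative to steady-state HSC, exporters and importers were split, as were all genes tested (41.8% higher and 34.7% lower). Of 7 exporters 2 rose and 4 fell, with Slc30a2 up by 1.32 log2 (SE 0.11) and Slc30a4 at -2.34 log2 (SE 0.15). Slc30a2 lay below the 25th percentile of genes on every young steady-state array. Of 11 importers 4 rose and 6 fell. Slc39a4, the intestinal zinc importer mutated in human acrodermatitis enteropathica, rose 8.56-fold (3.10 log2, SE 0.18). Slc39a6 fell by 2.57 log2 (SE 0.18). Slc39a8 lay below the 25th percentile of genes on every iPSC array (3.78 to 4.32 log2) and averaged 7.46 log2 in steady-state HSC, so it was at least 6.23-fold lower in iPSC (adjusted p = 1e-09). Here and below, such bounds are taken against that percentile. The medians were -0.52 log2 for exporters and -0.32 log2 for importers.

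**Figure D5:**
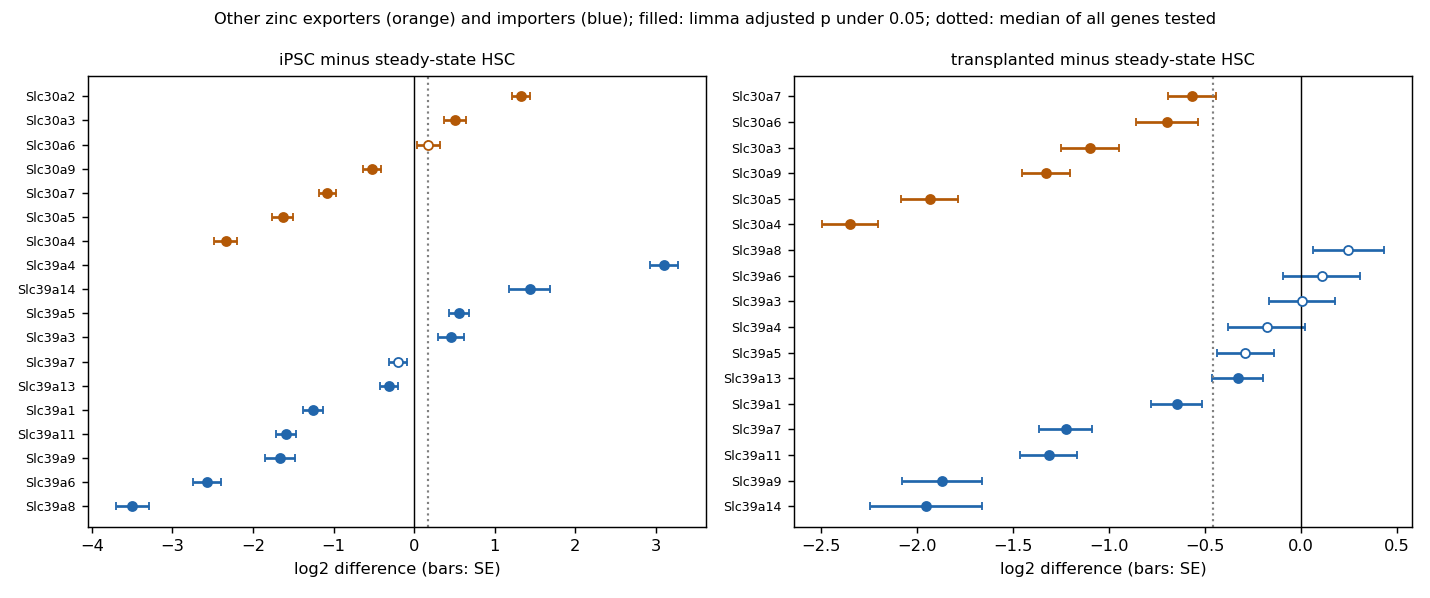
Log2 differences (x axes) with SE of the other tested zinc exporters (orange) and importers (blue) in iPSC minus steady-state HSC (left) and transplanted minus steady-state HSC (right). Filled points passed at a limma adjusted p under 0.05 and dotted lines mark the median of all genes tested. The 6 exporters on the right are all below 0, and Slc39a4 on the left is at 3.10. The point of Slc39a8 on the left is a fitted value of a gene below the 25th percentile of genes in iPSC.

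Calls with age are given next for these lists. In steady-state HSC limma called 0 of 6 exporters, 0 of 11 importers, 0 of 4 other reported MTF1 targets, 0 of 9 copper genes, 0 of 8 iron genes, 0 of 8 glucocorticoid response genes and 0 of 8 NRF2 genes. At an unadjusted p under 0.05 these counts were 0, 0, 1, 0, 0, 2 and 2, where 861 of all 13645 genes passed. The background was 1.18% of all genes (0.96% higher). Of 8 genes of the gp130 and STAT3 response, 2 rose and 6 passed at an unadjusted p under 0.05. This cytokine pathway is known to induce metallothioneins, and its part in their age differences was not tested. The list was chosen with earlier results of these data known, so its counts are a description only. The 2 called genes were Osmr, the oncostatin M receptor, which lay below the 25th percentile of genes on every young array and was at least 17.9-fold higher in aged cells (adjusted p = 7.84e-06), and Cebpd (1.24 log2, SE 0.21, adjusted p = 0.0203). The count of rises was 0 with the filter at the 50th percentile, 1 with probe sets averaged or with the replicate block, 3 with all 16 arrays in one fit and 4 with only the groups compared. It was 1 without any 1 of aged steady-state arrays 1, 2 and 3 or young steady-state arrays 1 and 2, and 3 without any 1 transplanted array.

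In transplanted HSC the one call in these 8 lists was Slc39a11, which was lower with aged marrow (-1.42 log2, SE 0.23, adjusted p = 0.0229), with a background of 1.35% (0.799% lower). At an unadjusted p under 0.05 there were 4 importers, 2 copper, 1 iron, 1 glucocorticoid response, 3 NRF2 and 2 gp130 genes, and 0 exporters and MTF1 targets, where 2079 of all 13645 genes passed. The importer list held 0 lower calls on the 4 transplanted arrays alone and without aged steady-state array 1 or 2 or young steady-state array 2 or 3, and 3 without young transplanted array 1. In iPSC of aged against young origin, and in iPSC against ESC, limma called 0 genes in all 8 lists. At an unadjusted p under 0.05, 1 of 7 exporters and 2 of 8 NRF2 genes were found between iPSC of aged and young origin, where 679 of all 13645 genes passed. Between iPSC and ESC, where 1737 passed, there were 1 of 7 exporters, 1 of 10 importers, 1 of 5 MTF1 targets, 2 of 8 iron genes, 1 of 6 glucocorticoid response genes and 2 of 8 NRF2 genes.

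The other lists are set beside the 76.4% of all genes called in iPSC relative to steady-state HSC (41.8% higher and 34.7% lower). Of 5 other MTF1 targets 2 rose and 3 fell, and Ndrg1 fell by 4.31 log2. Mt4, a metallothionein gene known from stratified epithelia, lay below the 25th percentile of genes on every steady-state array (3.84 to 4.44 log2), averaged 6.57 log2 in iPSC and was at least 4.01-fold higher there. Of 9 copper genes 3 rose and 2 fell, led by the chaperone gene Atox1 (2.17 log2) and the copper pump gene Atp7a (-1.66 log2). Of 8 iron genes 2 rose and 1 fell, with the transferrin receptor gene Tfrc up by 1.71 log2. Of 8 glucocorticoid response genes 2 rose and 5 fell, among them the receptor gene Nr3c1 (-5.41 log2) and Tsc22d3, which lay below that percentile on every iPSC array and was at least 53.4-fold lower. Of 8 NRF2 genes 3 rose and 4 fell, and of 8 gp130 genes 4 rose and 2 fell.

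In transplanted relative to steady-state HSC, where 69.9% of all genes were called (19.8% higher and 50.1% lower), 2 of 4 MTF1 targets rose and 1 fell, with Csrp1 up by 4.43 log2 and Gclc, a glutathione synthesis gene, at -1.60 log2. Copper genes had 2 rises and 3 falls of 9, with Cox17 up by 1.52 log2 and Atp7a at -2.75 log2. Iron genes had 2 and 5 of 8, with the iron exporter gene Slc40a1 at -3.43 log2. Glucocorticoid response genes had 0 and 6 of 8, NRF2 genes 0 and 3 of 8, and gp130 genes 1 and 7 of 8, with Socs3 at -4.54 log2.

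Genes whose levels ran most like Mt1 and Mt2 were ranked by the root-mean-square difference over the 16 arrays, each gene centred on its own mean. Among 13644 genes, Mt1 was nearest to Mt2 (0.97 log2, against a spread of 3.29 for Mt2 itself). Dusp9 (1.08), Tdrd12 (1.11), Mageb16 (1.11) and Olig1 (1.14) came next. Nearest to Mt1 were Fam169a (0.70, against a spread of 2.42 for Mt1), Rragd (0.80), Eprn (0.87), Ptprg (0.87) and Tigar (0.88), and Mt2 ranked 18. All these genes share the split into pluripotent and HSC arrays, and the ranking carries no test. The Mt1 values are those of the shared probe set, which may also take up signal from Mt2. A gene picked for running like Mt1 over these arrays also tends to share its age difference. Fam169a also averaged higher in aged than in young cells, with 7.07 and 5.24 log2 in aged and young steady-state HSC and 6.73 and 5.85 log2 in aged and young transplanted HSC. Dusp9 averaged 3.83 and 3.46 log2 in aged and young steady-state HSC. Both means lay below the 25th percentile of genes there (4.52 to 4.64 log2), so an age difference could be missed.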

How the data were processed

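The measurements are the intensity values of 16 arrays in 7 groups, deposited by the authors in 1 table of 45101 probe sets. They are linear, from 4.534 to 31493.3; their summarisation and normalisation are not given in the sources used here. Per the labels' protocols, cRNA was biotinylated from small numbers of sorted cells. Array medians were 5.44 to 5.70 log2. The table holds no detection calls, and the number of arrays limits the precision.

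Intensities were put on the log2 scale with the authors' scaling kept. A platform table gave 34945 probe sets 1 gene symbol, 932 several and 9160 none; 64 control probe sets were left out. Of 18194 gene identifiers, 18032 were in RefSeq. Each gene took the probe set with the highest mean, and genes under the 25th percentile of mean log2 in a fit were dropped, which left 13645; all 6 genes passed. Comparisons were fitted with limma 3.58.1 in R 4.3.3 (HSC: 10 arrays, 6 residual degrees of freedom; iPSC and ESC: 6 arrays, 3; iPSC against HSC: 16 arrays, 9), with Benjamini-Hochberg adjustment over all genes at 0.05. The fits were tested on simulated data with the same noise for all genes of a group, so genes of unequal spread were not covered. A list gene below the 25th percentile of genes on every array of one side of a comparison is given as a bound, a rule added after seeing the data.

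The genes, the gene lists and the markers were chosen with earlier results of these data known. The text names all 6 genes with every probe set, up to 4 called genes per list, comparison and direction (smallest p first), the 5 genes nearest to Mt1 and to Mt2, and marker checks. Alternatives were other scalings, filters, probe set rules, priors, sets of arrays in the fit, a required 2-fold change, a pseudocount of 64, the replicate number as a block and each array left out; the crossed pairing was added after seeing the data. Same-numbered arrays did not deviate together (correlations from -0.159 to 0.161), so the numbers were not used as pairs.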

Additional observations from a re-analysis of the deposited data

Results flagged for a closer look

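By its brighter probe set, 1436164_at, the age difference of Slc30a1 ran in opposite directions by cell type, which its other probe set did not share. On the brighter one every aged-origin iPSC array lay below every young-origin one, and every aged HSC array lay above every young one, in steady state and after transplantation. The age difference in iPSC minus that in steady-state HSC was -0.71 log2, and minus that in transplanted HSC it was -1.3 log2. Neither of these differences was tested. The dimmer probe set, 1422786_at, had age differences of 0.17 log2 in iPSC, with every aged-origin array above every young-origin one, of -0.03 log2 in transplanted HSC and of 0.10 log2 in steady-state HSC, both with overlap. Groups of 2 or 3 arrays are too small to examine single arrays as outliers.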

How the results depend on the processing

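Of 595 values under alternatives for 30 results, 567 were counted as kept. A tested value was kept if it stayed on its side of the threshold and, where called, in its direction. Values not called could turn direction, as did 8 of 22 for Mt2 in transplanted minus steady-state HSC. A count of calls was kept if it stayed of like size. A value without a test was kept if its direction held and it moved by less than the spread between arrays. In this sense 16 of 24 results on single genes were kept throughout. Requiring a 2-fold change left 2 genes called for transplanted minus steady-state HSC and 3 for iPSC minus steady-state HSC. Leaving out 1 array gave 4 to 5 and 5 to 6 calls there, and 0 in both comparisons among pluripotent cells. A pseudocount of 64 lowered the aged minus young difference of Mt2 to 2.102 log2 for steady-state HSC and 1.443 log2 after transplantation; leaving out 1 array gave 3.209 to 3.514 and 1.662 to 2.818. Averaging the probe sets of each gene turned Mtf1 to 0.451 log2 for transplanted minus steady-state HSC and 0.177 log2 for iPSC minus steady-state HSC, and Slc30a1 to 0.31 log2 for iPSC minus steady-state HSC; their probe sets disagree. With the replicate number as a block, 4 genes were called in transplanted minus steady-state HSC, 5 in iPSC minus steady-state HSC and 0 between iPSC of aged and young origin. The crossed pairing also gave 4. For iPSC minus ESC no block was fitted, because ESC carry no replicate numbers. Over all genes, calls for age were 161 in steady-state HSC, from 78 to 415 under alternatives, and 184 in transplanted HSC, from 0 (only those 4 arrays, with 636 at an unadjusted p under 0.05) to 1467 (without young transplanted array 2). For iPSC minus ESC 15 calls became 7 to 66. With each array centred on its median, the share of higher calls in transplanted minus steady-state HSC was 20.5%, against 28.3%, and with probe sets averaged per gene it was 40.3%.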
